A study of Mus musculus with 8 samples.

Results

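The transcripts described here are the cytochrome P450 genes of families 1 to 3 in mouse liver. They were all genes of the deposited table whose name is Cyp1, Cyp2 or Cyp3 followed by a subfamily letter and a number, without pseudogenes, and 34 of the 14506 genes listed met that rule. RNA was taken from whole livers of 4 Rragc S74N/+ and 4 Rragc+/+ mice. Rragc encodes RagC, a GTPase through which nutrient sufficiency activates mTORC1, and the Rragc S74N/+ mice carried the activating substitution S74N in every tissue on 1 allele, beside a normal copy. Replicates 1 to 3 of Rragc+/+ were 3 months old and replicate 4 was 2.5 months old. Replicates 1 and 2 of Rragc S74N/+ were 3 months old, replicate 3 was 2.5 months old and replicate 4 was 2 months old, so that age and genotype cannot be told apart for the only 2-month-old animal. The mice were of a C57BL/6 background and on standard chow. The sex of these mice, the time of day of sampling and their feeding state are not given in the sources used here. Values per liver are given throughout in the order of replicates 1 to 4.

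Cytochromes P450 are heme enzymes of the endoplasmic reticulum that insert an oxygen atom into their substrate, using electrons delivered by the reductase Por. Members of families 1 to 3 are concentrated in hepatocytes, where they oxidize drugs, toxicants, steroids, bile acids and fatty acids. Their transcription is known to answer to foreign chemicals through the receptors AhR, CAR and PXR, to the sex-specific pattern of growth hormone release, to the circadian clock and to the position of the hepatocyte between portal and central vein. Human relatives of these genes clear most drugs in clinical use, and the mouse has a larger Cyp2 and Cyp3 repertoire with many closely similar copies.

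Each library was made from the 3′ end of polyadenylated RNA, so that a normalized read count follows the number of transcripts and is not divided by length. Whole reads could be recovered from the values, and there were 4313076 to 6632108 of them per liver. Hepatocyte genes dominated as the label says: 12 hepatocyte markers were listed and summed to 434788 to 568522 in Rragc+/+ and 469325 to 674327 in Rragc S74N/+ livers, with Alb the most abundant. Summed markers of other cells were far lower, at 3029 to 4771 in Rragc+/+ and 3056 to 5069 in Rragc S74N/+ livers for 10 Kupffer cell genes, 1255 to 1595 in Rragc+/+ and 1263 to 1629 in Rragc S74N/+ livers for 9 endothelial genes and 2168 to 2476 in Rragc+/+ and 1878 to 2777 in Rragc S74N/+ livers for 9 stellate cell genes. In bulk tissue, fewer cells of a type and less RNA per cell cannot be told apart. Kidney markers, of which 7 of 10 were listed, summed to 228 to 391 in Rragc+/+ and 65.7 to 133 in Rragc S74N/+ livers, and Gpx3 among them was the only gene of the table with an adjusted p under 0.05 (lower in Rragc S74N/+). Lymphocyte markers, of which 9 of 10 were listed, summed to 103 to 163 in Rragc+/+ and 197 to 309 in Rragc S74N/+ livers. The most abundant of them was Igkc, with means of 57.1 and 141. Means of Cd3d, Cd3e and Cd79b were lower in Rragc S74N/+ livers, and those of the other listed lymphocyte markers were higher. Umod, Slc22a6 and Aqp2 among the kidney markers and Cd3g among the lymphocyte markers were not in the table used. At an unadjusted limma p under 0.05, 3 of 10 Kupffer cell genes (Adgre1, C1qc and Marco), 2 of 9 endothelial genes (Lyve1 and Pecam1), 1 of 8 tested stellate cell genes (Col1a1), 1 of 2 tested lymphocyte genes (Igkc) and 1 of 12 hepatocyte genes (Pck1) were higher in Rragc S74N/+, 2 of 3 tested kidney genes (Gpx3 and Kap) were lower and none of 2 tested cholangiocyte genes differed. Over all genes tested, 2.37% were higher and 2.80% lower in Rragc S74N/+ at that level. The part of these cell types in the P450 values was not tested.

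The 34 members fell into 11 subfamilies, with 13 Cyp2c, 6 Cyp2d, 4 Cyp3a, 3 Cyp2j and 2 Cyp2a genes and 1 gene each of Cyp1a, Cyp2b, Cyp2e, Cyp2f, Cyp2r and Cyp2u. Most lie in clusters on GRCm38. All Cyp2d members sit on chromosome 15 between 82370527 and 82794294, the Cyp2c members on chromosome 19 between 39007019 and 44029208, the Cyp2j members on chromosome 4 between 96516138 and 96664154 and the Cyp3a members on chromosome 5 between 137892932 and 146113287. Because reads came from 3′ ends, near-identical ends decide how far a count belongs to 1 gene. Over the last 400 bases of each principal transcript in GENCODE M21, 15 members had no stretch of 50 bases in common with another gene and 19 had at least one. Cyp2c40 and Cyp2c68 shared more than 50% of their stretches, 67.0% and 51.6%, with each other, Cyp2c67 and Cyp2c69. Counts of these 4 genes, and of the Cyp2d genes, which share 18.2% to 33.0% of such stretches with other Cyp2d genes except for Cyp2d22, are therefore uncertain between copies. The alignment kept reads with several matches, and how the counting treated them is not given in the sources used here.

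The promoters are shown for 5 members on which the comparisons below turn: Cyp2d9, which was low in the 2-month-old liver, Cyp2c40 and Cyp2c69, which were high there, Cyp2e1, which was low in the 2.5-month-old livers, and Cyp2a5, which was higher in Rragc S74N/+ livers at an unadjusted p. Each run covers 250 bases before to 50 bases after the RefSeq start on GRCm38.p6, 5′ to 3′ along the gene, and capitals mark matches on either strand to the motifs listed after them. Cyp2d9 is chr15:82452127-82452426 on the forward strand, Cyp2c40 chr19:39812765-39813064 on the reverse strand, Cyp2c69 chr19:39886720-39887019 on the reverse strand, Cyp2e1 chr7:140763569-140763868 on the forward strand and Cyp2a5 chr7:26835089-26835388 on the forward strand.
Cyp2d9: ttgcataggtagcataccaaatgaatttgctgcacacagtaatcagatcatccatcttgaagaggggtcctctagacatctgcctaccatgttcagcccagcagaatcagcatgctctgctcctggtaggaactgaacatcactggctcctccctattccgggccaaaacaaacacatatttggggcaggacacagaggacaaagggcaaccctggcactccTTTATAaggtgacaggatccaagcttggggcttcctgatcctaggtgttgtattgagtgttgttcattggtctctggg
Cyp2c40: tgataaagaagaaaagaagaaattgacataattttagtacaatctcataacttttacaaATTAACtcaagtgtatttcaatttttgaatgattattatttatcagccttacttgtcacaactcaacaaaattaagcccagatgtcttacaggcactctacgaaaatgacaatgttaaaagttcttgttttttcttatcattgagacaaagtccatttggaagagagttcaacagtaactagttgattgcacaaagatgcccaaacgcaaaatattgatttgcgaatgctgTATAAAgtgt
Cyp2c69: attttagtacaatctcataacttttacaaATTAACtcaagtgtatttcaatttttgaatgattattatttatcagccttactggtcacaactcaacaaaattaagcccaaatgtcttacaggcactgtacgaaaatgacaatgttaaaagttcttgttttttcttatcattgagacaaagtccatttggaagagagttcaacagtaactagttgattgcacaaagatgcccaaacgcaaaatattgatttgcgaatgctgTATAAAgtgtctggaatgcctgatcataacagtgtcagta
Cyp2e1: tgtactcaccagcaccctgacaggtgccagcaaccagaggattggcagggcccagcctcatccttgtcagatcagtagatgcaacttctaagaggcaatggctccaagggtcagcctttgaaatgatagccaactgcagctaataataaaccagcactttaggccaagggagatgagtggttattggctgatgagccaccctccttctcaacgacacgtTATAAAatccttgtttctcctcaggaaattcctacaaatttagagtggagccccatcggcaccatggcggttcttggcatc
Cyp2a5: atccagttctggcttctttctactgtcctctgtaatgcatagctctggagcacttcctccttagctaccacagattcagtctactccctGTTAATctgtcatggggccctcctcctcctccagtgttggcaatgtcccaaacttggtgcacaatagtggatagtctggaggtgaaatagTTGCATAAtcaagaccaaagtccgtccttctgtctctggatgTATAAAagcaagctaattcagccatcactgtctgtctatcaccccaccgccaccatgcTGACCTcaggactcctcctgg

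The capitals in Cyp2d9 and Cyp2e1 are the TATA box TATAAA, read in Cyp2d9 on the opposite strand as TTTATA. In Cyp2c40 and Cyp2c69 they are the HNF1 half-site GTTAAT, read on the opposite strand as ATTAAC, and a TATA box that lies after the annotated start in both. These 2 promoters are the same stretch of sequence displaced along the window, with an identity of 79.0% when aligned end to end. Cyp2a5 holds an HNF1 half-site, the D-box TTATGNAA on the opposite strand, a TATA box and the nuclear receptor half-site AGGTCA on the opposite strand, after the start. The closest promoters among the members were those of Cyp3a25 and Cyp3a59 at 95.7% and of Cyp2c68 and Cyp2c69 at 91.0%.

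RefSeq gave 31 promoters for 29 of the 34 members, and none was used for Cyp2c23, Cyp2c54, Cyp2d12, Cyp2d22 and Cyp2u1. TATAAA stood in 58.1% (18 of 31) of the member promoters, against 13.6% of 32851 promoters of the same length over all genes. AGGTCA, the half-site read by nuclear receptors such as CAR and PXR, stood in 35.5% (11 of 31) against 16.3%. The HNF1 half-site stood in 16.1% (5 of 31) against 7.10%. These shares are above those of all promoters, with no test, and similar copies among the members are not independent. GCGTG, the core of the element bound by AhR, was less frequent at 12.9% (4 of 31) against 32.4%, and the Cyp1a2 window held none. The D-box, bound by clock-controlled factors such as Dbp, was found in 6.45% (2 of 31) against 3.38%, in Cyp2a5 and Cyp2b10. The E-box CACGTG was found in 3.23% (1 of 31) against 7.15%, in Cyp2j6. The TFEB-family core TCACGTGA, which contains that E-box, and the STAT element TTCNNNGAA were in none of the 31, against 0.974% and 8.30%. A match describes letters in this window, and a missing match says nothing of elements elsewhere.

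Expression of the members spanned 3.5 orders of magnitude, from a mean of 11214 normalized reads for Cyp2d9 to 3.27 for Cyp2c39. There were 13 members with a mean of at least 1000 and 10 with a mean under 100, and 5 members stood among the 100 most abundant genes of the liver. The 10 most abundant held 86.1% of the members' values. Together the members took 1.14, 1.21, 1.14 and 1.15% in Rragc+/+ and 1.19, 1.09, 1.24 and 0.831% in Rragc S74N/+ livers. The Rragc S74N/+ liver of 2 months was below all the others, and of the remaining 3 of its genotype 1 lay within, 1 below and 1 above the Rragc+/+ range. Means were 1.16% ± 0.0346 (SD, n = 4) and 1.09% ± 0.181 (SD, n = 4), and without the 2-month-old liver the second became 1.17% ± 0.0778 (SD, n = 3).

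**Figure D1:**
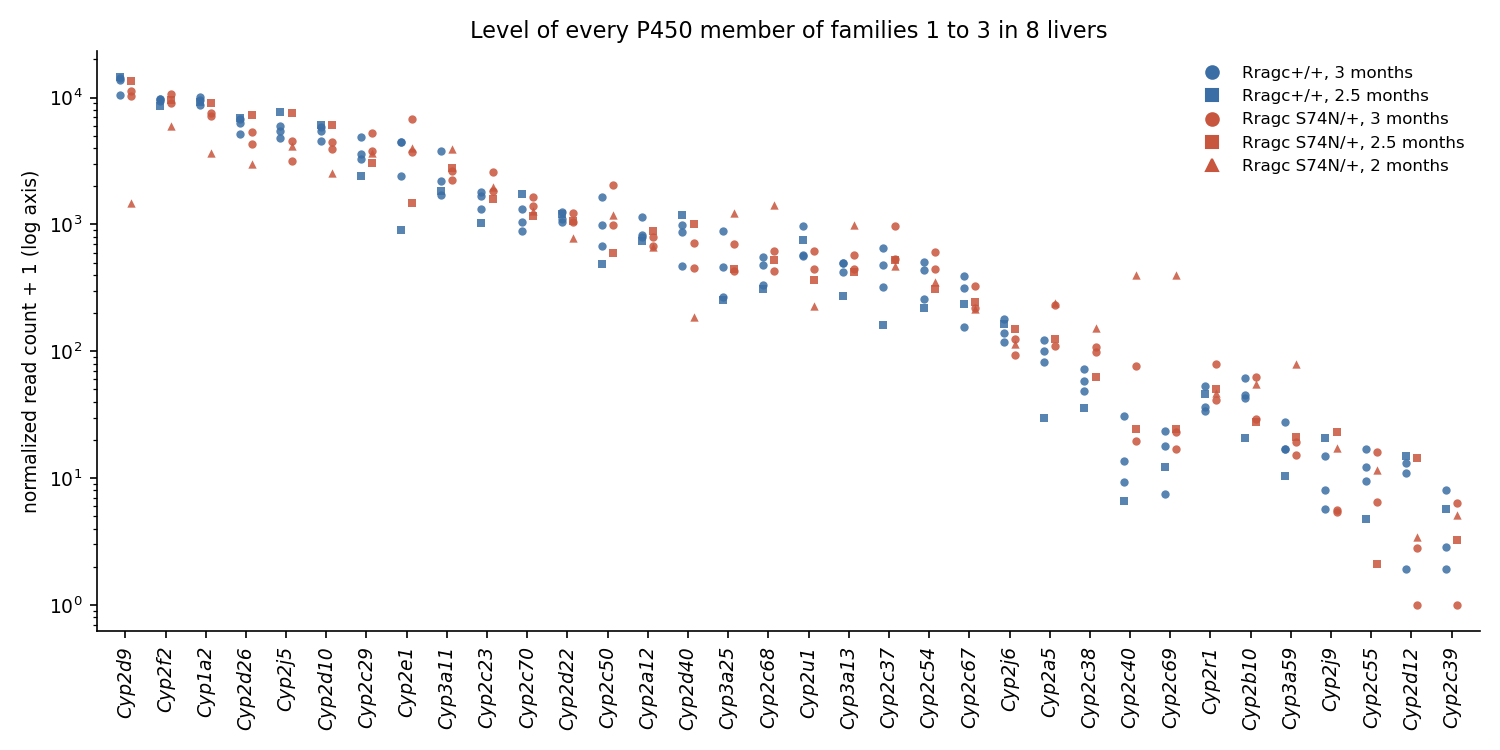
Normalized read count + 1 on a log axis for all 34 members, ordered by their mean, with 1 point per liver, blue for Rragc+/+ and red for Rragc S74N/+. Circles are livers of 3 months, squares of 2.5 months and the triangle the liver of 2 months, which lies lowest for Cyp2d9 (1486) and highest for Cyp2c40 and Cyp2c69 (396 each).

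The spread between livers differed widely among members. Among the 4 Rragc+/+ livers the coefficient of variation was 5.30% for Cyp2f2, 5.76% for Cyp1a2 and 8.01% for Cyp2d22, while it was 56.4% for the abundant Cyp2e1 and 63.1% for Cyp3a25. Over all 8 livers the ratio of the highest to the lowest value ran from 1.61 for Cyp2d22 to 70.7 for Cyp2c40 among the members tested.

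Genotype was compared first across all genes. No P450 member differed between Rragc S74N/+ and Rragc+/+ livers past the threshold. Of the 34 members, 31 reached a mean of 10 normalized reads and were tested with limma on log2(normalized count + 1), a scale that understates changes of low genes, and Cyp2c39, Cyp2c55 and Cyp2d12 did not reach it. None of the 31 had a Benjamini-Hochberg adjusted p under 0.05 in limma, against 0.00895% of the 11174 genes tested, and none did in edgeR or DESeq2 on the recovered reads. At an unadjusted limma p under 0.05, 3 members were higher in Rragc S74N/+, or 9.68% against 2.37% of all genes, and 1 was lower, or 3.23% against 2.80%. The corresponding counts were 5 and 1 with edgeR and 4 and 1 with DESeq2. The share of all genes at that level by genotype was counted for the main fit alone. Counts with other tools or without a liver therefore have no background. The genotypes overlapped for every member, while 1.30% of all genes were higher and 1.64% lower in Rragc S74N/+ without overlap. The median log2 fold change was 0.18 over the 31 members and 0.012 over all genes, with 18 members higher and 13 lower. Counts at an unadjusted p rested on single livers: 6 members were higher without Rragc+/+ replicate 2, without Rragc+/+ replicate 3 or without Rragc S74N/+ replicate 3, and 5 without Rragc S74N/+ replicate 2, while 2 were lower without Rragc+/+ replicate 3 and 7 without Rragc S74N/+ replicate 3.

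**Figure D2:**
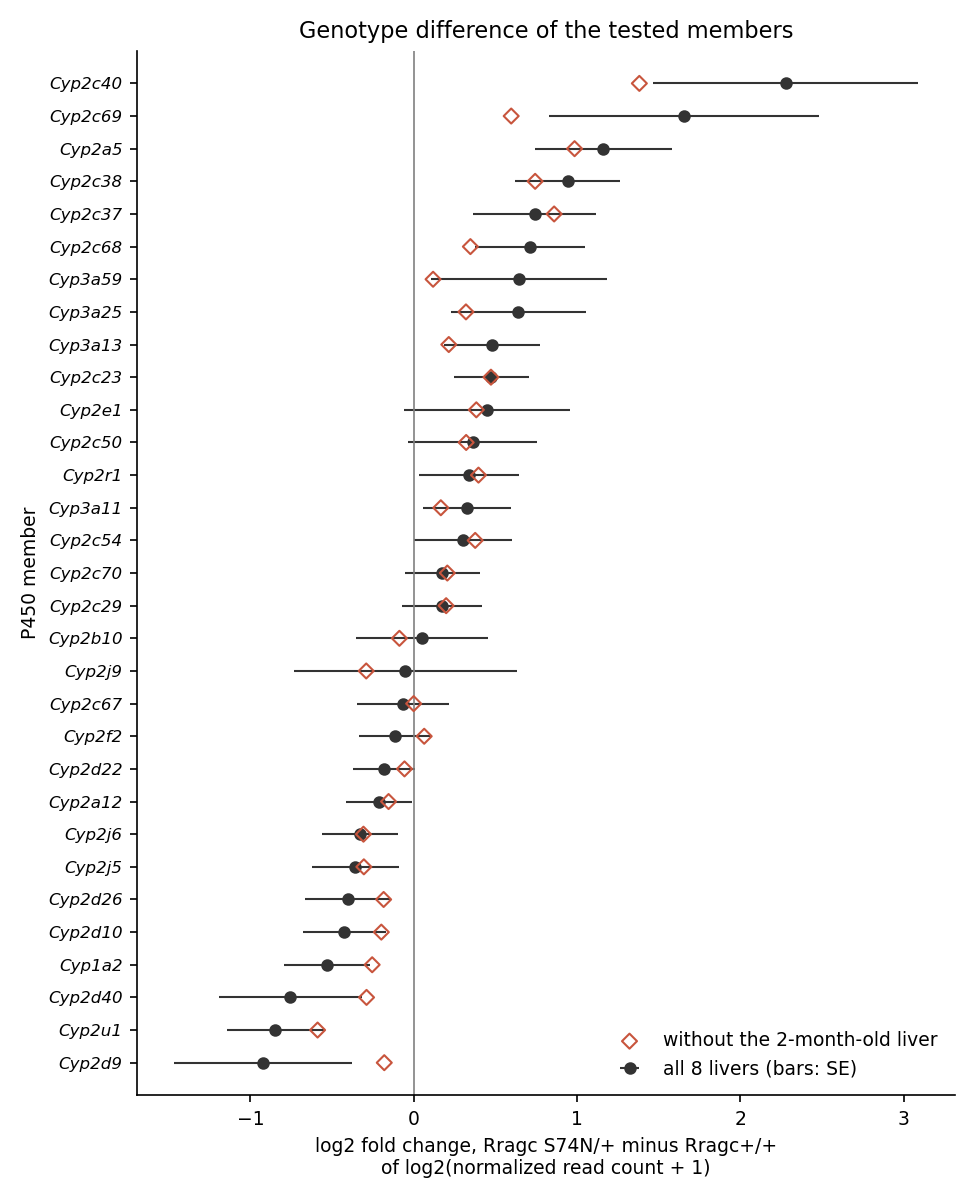
Log2 fold change of each of the 31 tested members, Rragc S74N/+ minus Rragc+/+, with black points and bars for the estimate and SE over all 8 livers and red diamonds for the estimate without the 2-month-old Rragc S74N/+ liver. Values run from -0.92 for Cyp2d9 to 2.28 for Cyp2c40, and the Cyp2d9 estimate is -0.18 without that liver.

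The 4 members at an unadjusted p under 0.05 were not the abundant ones. Cyp2a5, the coumarin 7-hydroxylase, had 99.7, 81.4, 122 and 29.0 in the Rragc+/+ and 232, 108, 124 and 239 in the Rragc S74N/+ livers. Rragc S74N/+ replicate 2 lay inside the range of Rragc+/+ and the other 3 above it, with replicates 1 and 4 the highest, and the lowest value of all was that of the 2.5-month-old Rragc+/+ liver. Means were 82.9 ± 39.6 and 176 ± 69.4 (SD, n = 4 each), with log2 fold change 1.16, SE 0.42, limma adjusted p = 0.846, exact permutation p = 0.0571. Cyp2c38, an arachidonic acid epoxygenase, had 47.5, 57.0, 72.1 and 34.6 in the Rragc+/+ and 107, 97.8, 61.3 and 151 in the Rragc S74N/+ livers. Replicates 1, 2 and 4 of Rragc S74N/+ lay above the highest Rragc+/+ value, and replicate 3 did not. Means were 52.8 ± 15.8 and 104 ± 36.8 (SD, n = 4 each), with log2 fold change 0.94, SE 0.32, limma adjusted p = 0.846, exact permutation p = 0.0571. Without the 2-month-old liver the log2 fold changes were 0.99 and 0.74.

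Cyp2u1, a fatty acid hydroxylase counted among male-biased liver genes, was the member lower at an unadjusted p. It had 563, 978, 577 and 758 in the Rragc+/+ and 622, 448, 362 and 227 in the Rragc S74N/+ livers. Replicates 2, 3 and 4 of Rragc S74N/+ lay below every Rragc+/+ liver, and replicate 1 was inside their range. Means were 719 ± 194 and 415 ± 165 (SD, n = 4 each), with log2 fold change -0.85, SE 0.30, limma adjusted p = 0.846, exact permutation p = 0.0857, and the log2 fold change without the 2-month-old liver was -0.59. The fourth member, Cyp2c40, was highest in the 2-month-old liver and is described with it.

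The AhR target Cyp1a2, which oxidizes caffeine and aromatic amines, was the third most abundant member. It had 10108, 9619, 8814 and 9291 in the Rragc+/+ and 7188, 7620.2, 9063 and 3683 in the Rragc S74N/+ livers. Values fell in a narrow band in Rragc+/+, and Rragc S74N/+ replicates 1, 2 and 4 lay below that band. The difference did not pass the test (log2 fold change -0.53, SE 0.26, limma adjusted p = 0.846, exact permutation p = 0.0571), and without the 2-month-old liver the log2 fold change was -0.25. Cyp1a1 and Cyp1b1, the other AhR-inducible P450 genes, were not in the table used. Of 3 tested AhR targets outside the P450 families, none had an unadjusted p under 0.05, and the receptor itself, Ahr, had a log2 fold change of -0.13 (SE 0.36, limma adjusted p = 0.943).

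Of 8 members known to be induced through CAR or PXR, 6 were listed and 5 tested. All 5 were higher in Rragc S74N/+ by estimate, with a median log2 fold change of 0.33 (0.20 without the 2-month-old liver), and none had an unadjusted p under 0.05. Cyp3a11, the counterpart of the main human drug-metabolizing P450, had 2188, 1704, 3821 and 1851 in the Rragc+/+ and 2627, 2251, 2779 and 3961 in the Rragc S74N/+ livers. Rragc+/+ replicate 3 stood near the 2-month-old liver at the top, and the remaining livers were spread below both (log2 fold change 0.33, SE 0.27, limma adjusted p = 0.846, exact permutation p = 0.314). Cyp2c29, an abundant epoxygenase, had 3571, 3295, 4919 and 2423 in the Rragc+/+ and 5275.5, 3800.3, 3072 and 3693 in the Rragc S74N/+ livers. Its genotypes overlapped widely (log2 fold change 0.17, SE 0.25, limma adjusted p = 0.884, exact permutation p = 0.514). Cyp2c37 had 321, 656, 478 and 162 in the Rragc+/+ and 966, 536, 528 and 466 in the Rragc S74N/+ livers. Here the 2.5-month-old Rragc+/+ liver was far below the rest and Rragc S74N/+ replicate 1 far above (log2 fold change 0.74, SE 0.38, limma adjusted p = 0.846, exact permutation p = 0.229).

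Cyp2b10, the classical CAR target, was low throughout, with 60.6, 42.1, 43.9 and 19.6 in the Rragc+/+ and 28.5, 62.2, 26.7 and 53.8 in the Rragc S74N/+ livers. Neither genotype stood apart, and its log2 fold change of 0.052 (SE 0.40, limma adjusted p = 0.982) became -0.26, -0.16 and -0.088 without Rragc+/+ replicate 4, Rragc S74N/+ replicate 2 and Rragc S74N/+ replicate 4. Cyp3a13 ranged from 271 to 577 in 7 livers and was 997 in the 2-month-old one. Cyp2c55, below the filter, had between 1 and 17 reads per liver. The receptors Nr1i2 (PXR) and Nr1i3 (CAR) had log2 fold changes of 0.048 and -0.48 (limma adjusted p = 0.966 and 0.846). None of the 10 tested genes of the xenobiotic receptors and their partners had an unadjusted p under 0.05.

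By subfamily the estimates leaned in different directions without passing the test. Of the 11 tested Cyp2c members 10 were higher in Rragc S74N/+, with a median log2 fold change of 0.48 (0.38 without the 2-month-old liver). The exception, Cyp2c67, had a log2 fold change of -0.068 that turned to 0.13 and 0.024 without Rragc+/+ replicate 2 or 3. All 4 Cyp3a members were higher, with a median of 0.56 that was 0.19 without the 2-month-old liver. All 5 tested Cyp2d members were lower, with a median of -0.43 that was -0.18 without it. The 3 Cyp2j members were lower at a median of -0.33 and -0.31. Of them Cyp2j9, with 5 to 21 reads per liver, had a log2 fold change of -0.052, which ranged from -0.43 to 0.27 as single livers were left out and was above 0 without Rragc+/+ replicate 1 or 4 or Rragc S74N/+ replicate 1 or 2. Neighbouring members can share sequence and regulation, so these counts are not independent, and the whole table held 5737 genes with a higher and 5437 with a lower estimate.

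**Figure D3:**
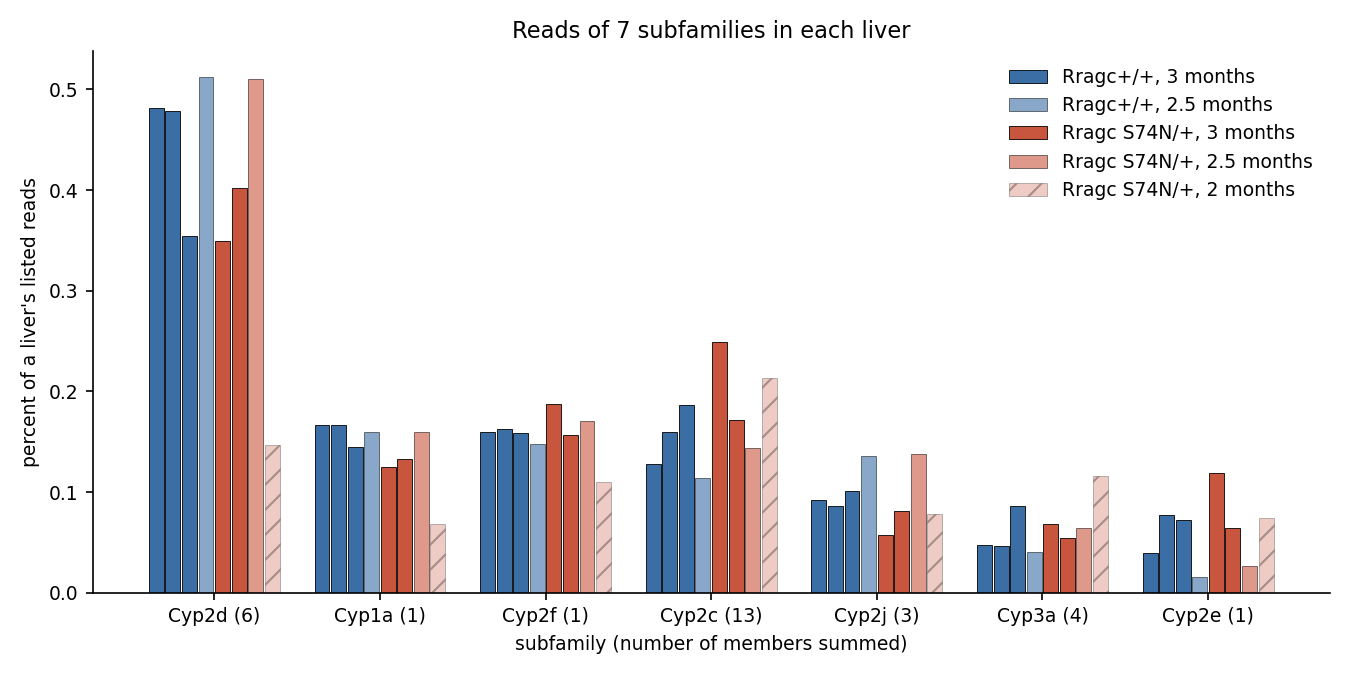
Percent of each liver's listed reads taken by 7 P450 subfamilies, with 1 bar per liver in the order of the replicates, blue for Rragc+/+ and red for Rragc S74N/+, paler at 2.5 months and hatched at 2 months. Cyp2d took 0.147% in the hatched liver and 0.349% to 0.513% in the others.

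The Cyp2d genes took 0.482, 0.479, 0.355 and 0.513% in Rragc+/+ and 0.349, 0.402, 0.510 and 0.147% in Rragc S74N/+ livers, the largest share of any subfamily in every liver but the 2-month-old one, where the Cyp2c genes took 0.214%. CYP2D enzymes oxidize many basic drugs and Cyp2d22 is the mouse gene closest in function to human CYP2D6. Cyp2d26 had 6752, 6333, 5192 and 6868 in the Rragc+/+ and 4272, 5341, 7289 and 2978 in the Rragc S74N/+ livers. Cyp2d10 had 5839, 5492.5, 4514 and 6089 in the Rragc+/+ and 3945, 4451, 6097 and 2526 in the Rragc S74N/+ livers. For both, the 2.5-month-old Rragc S74N/+ liver was slightly above the highest Rragc+/+ liver, the 3-month-old ones were below every Rragc+/+ liver or near the lowest and the 2-month-old one was the lowest of all. Log2 fold changes were -0.41 (SE 0.26) and -0.43 (SE 0.25), both with a limma adjusted p of 0.846.

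The epoxygenases Cyp2j5 and Cyp2c23 convert arachidonic acid to vasoactive epoxides. Cyp2j5 had 5481, 4846, 5957 and 7757 in the Rragc+/+ and 3168, 4556, 7615 and 4124 in the Rragc S74N/+ livers. Its 2.5-month-old livers were the highest of both genotypes, and the genotypes overlapped (log2 fold change -0.36, SE 0.27, limma adjusted p = 0.846, exact permutation p = 0.257). Cyp2c23 had 1322, 1801, 1676 and 1019 in the Rragc+/+ and 2593, 1851, 1597 and 1988 in the Rragc S74N/+ livers. The highest value was Rragc S74N/+ replicate 1 and the lowest the 2.5-month-old Rragc+/+ liver (log2 fold change 0.48, SE 0.23, limma adjusted p = 0.846, exact permutation p = 0.114). Over the 8 tested members of the arachidonic acid epoxygenase list, which holds Cyp2c23 under its older symbol Cyp2c44, 1, Cyp2c38, had an unadjusted p under 0.05, and the median log2 fold change was 0.24.

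Bile acids and vitamin D are substrates of single members. Cyp2c70, which makes the muricholic acids of rodents, ranged from 888 to 1743 (log2 fold change 0.18, SE 0.23). Cyp2a12, a bile acid 7-alpha-hydroxylase, ranged from 663 to 1143 (log2 fold change -0.21, SE 0.20). Cyp2r1, a vitamin D 25-hydroxylase, ranged from 32.5 to 79.0 (log2 fold change 0.34, SE 0.31). In all 3 the livers of the genotypes were interleaved.

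The electron donors and the heme supply were examined beside the P450 genes. None of 6 redox partners had an unadjusted p under 0.05, and all 6 were higher by estimate, with a median log2 fold change of 0.15. Por, the reductase that serves all members, had 914, 1292, 747 and 917 in the Rragc+/+ and 902, 899, 1461 and 1712 in the Rragc S74N/+ livers (log2 fold change 0.33, SE 0.26, limma adjusted p = 0.846, exact permutation p = 0.314). It was highest in the 2-month-old and the 2.5-month-old Rragc S74N/+ livers. Of 12 genes of heme synthesis and breakdown, Alad had an unadjusted limma p under 0.05. It is an early enzyme of heme synthesis, and its log2 fold change was -0.59 (limma adjusted p = 0.846). Alas1, the rate-limiting enzyme of that pathway, ranged from 144 to 1609 and reached its highest value in Rragc S74N/+ replicate 1. Of 15 hepatocyte transcription factors none had an unadjusted p under 0.05.

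The 2-month-old Rragc S74N/+ liver stood outside the range of the other 7 livers for 18 of the 31 tested members, above it for 9 and below it for 9, or 29.0% each, while 17.0% of all tested genes were above and 18.4% below. These are values of 1 animal, and the counts were not tested. The members below included all 5 tested Cyp2d genes, with Cyp1a2, Cyp2a12, Cyp2f2 and Cyp2u1. The members above were all 4 Cyp3a genes, with Cyp2a5, Cyp2c38, Cyp2c40, Cyp2c68 and Cyp2c69.

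**Figure D4:**
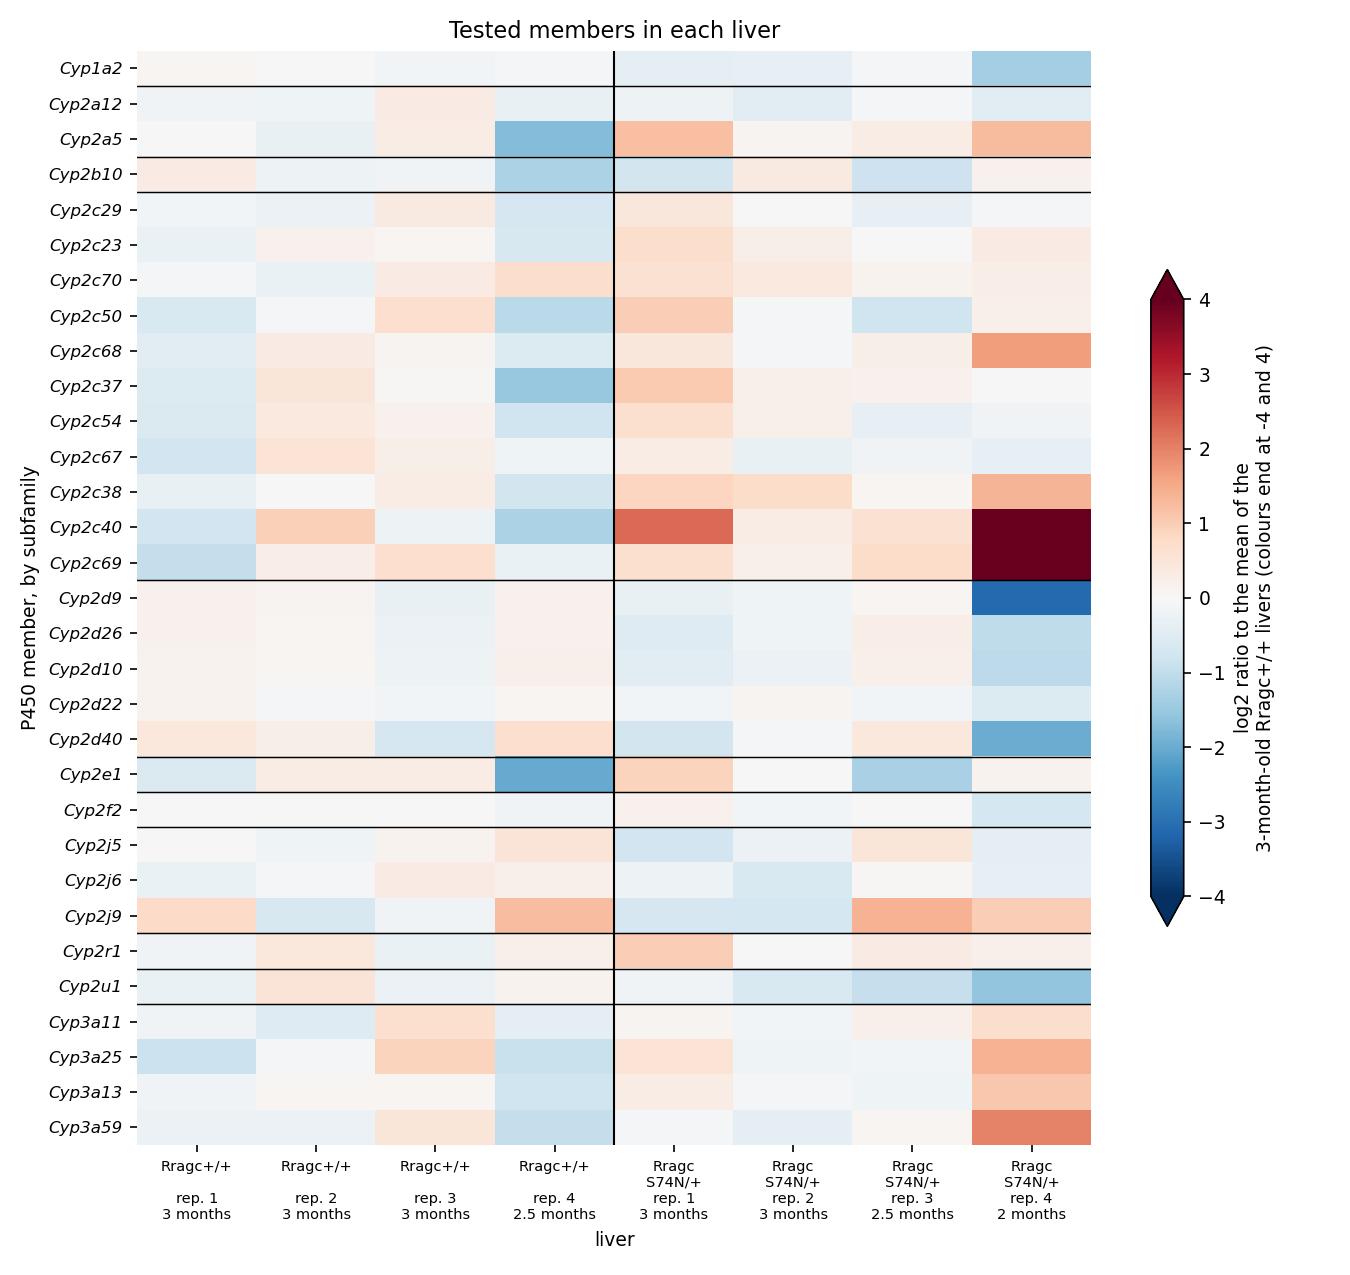
Log2 ratio of normalized read count + 1 in each liver to the mean of the 3 Rragc+/+ livers of 3 months, for the 31 tested members grouped by subfamily with red above and blue below the reference. The last column, the 2-month-old liver, is blue over all 5 Cyp2d rows and red over all 4 Cyp3a rows, and the columns of 2.5 months are blue at Cyp2e1.

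Cyp2d9, a testosterone 16-alpha-hydroxylase typical of male mouse liver and the most abundant member, had 14391, 13841, 10404 and 14515 in the Rragc+/+ and 10298.5, 11357, 13422 and 1486 in the Rragc S74N/+ livers. Its level in the 2-month-old liver was 9.03-fold below the median of the other 7. Elsewhere the genotypes overlapped, and the log2 fold change of -0.92 (SE 0.54, limma adjusted p = 0.846, exact permutation p = 0.171) was -0.18 without that liver. Cyp2d40 was 187 in the 2-month-old liver and 449.9 to 1191 in the others. Cyp2f2, the periportal P450 that activates naphthalene, had 9691, 9425, 9689 and 8641 in the Rragc+/+ and 10755, 8995, 9659 and 5939 in the Rragc S74N/+ livers. It was even across 7 livers and lower in the eighth, and its log2 fold change of -0.12 (SE 0.22) turned to 0.064 without that liver.

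Cyp2c40 and Cyp2c69, which are female-biased in mouse liver, moved the other way. Cyp2c40 had 8.39, 29.9, 12.7 and 5.61 in the Rragc+/+ and 75.3, 18.7, 23.4 and 396 in the Rragc S74N/+ livers. Cyp2c69 had 6.53, 16.8, 22.6 and 11.2 in the Rragc+/+ and 22.0, 16, 23.4 and 396 in the Rragc S74N/+ livers. In the 2-month-old liver both stood at 396, each from 486 reads, which was 21.2 and 23.6 times the median of the other 7 livers, and the next highest Cyp2c40 value was that of Rragc S74N/+ replicate 1. These genes have the nearly shared promoter shown above and share 3′ stretches, so how their reads divide is uncertain. For Cyp2c40 the log2 fold change was 2.28 (SE 0.81, limma adjusted p = 0.846, exact permutation p = 0.0857) and 1.38 without that liver. For Cyp2c69 it was 1.65 (SE 0.83, limma adjusted p = 0.846) and 0.60. Their neighbour Cyp2c68 was 1422 there and 307 to 611 in the others, while Cyp2c67, which shares 3′ stretches with all 3, was 215 and 156 to 392.

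The low-abundance Cyp3a59 was 78.3 in the 2-month-old liver and 9.34 to 26.9 in the others, and Cyp3a25, whose promoter is the closest to that of Cyp3a59, was 1242 and 255 to 886. Both are steroid- and drug-oxidizing enzymes of the PXR-regulated cluster. Exact matches covered 0.850% of their 3′ stretches of 50 bases. Their last 400 bases were 94.25% identical when aligned end to end, so how their reads divide is uncertain.

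**Figure D5:**
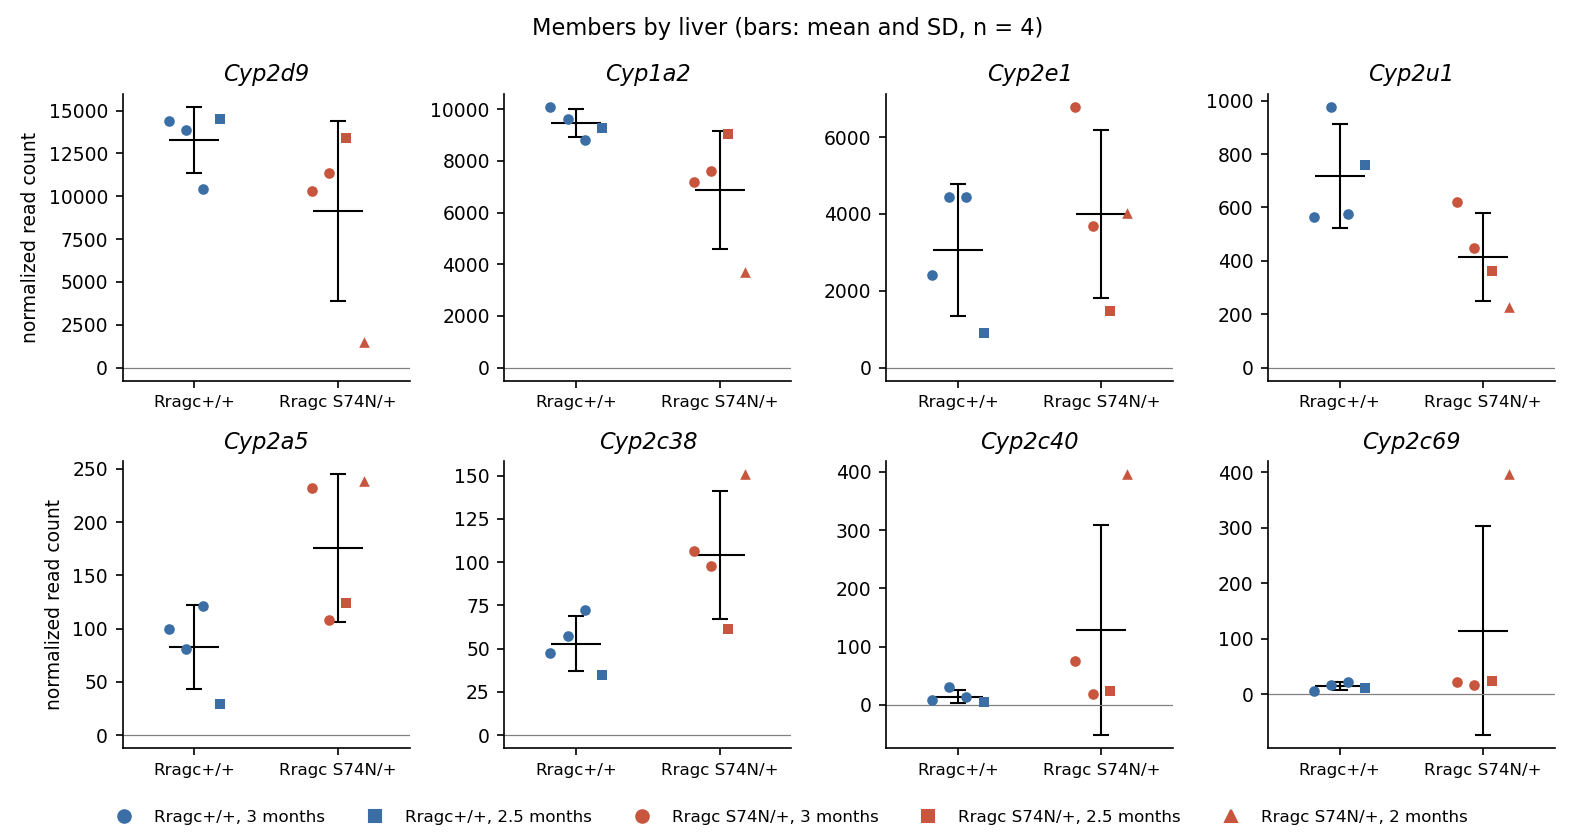
Normalized read counts of 8 members in each liver on linear axes, Rragc+/+ in blue and Rragc S74N/+ in red, with circles for 3, squares for 2.5 and the triangle for 2 months, and bars for the mean and SD (n = 4). The triangle lies at 1486 for Cyp2d9 and at 396 for Cyp2c69, and the squares are the lowest of their genotype for Cyp2e1, Cyp2a5 (in Rragc+/+) and Cyp2c38.

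Sex-biased genes were listed within and beyond the P450 families, since growth hormone release sets their levels in mouse liver. Of 6 male-biased P450 genes, including Cyp4a12a, Cyp4a12b and Cyp7b1 of other families, 5 were lowest in the 2-month-old liver, as were 8 of 10 other male-biased liver genes, against the 18.4% of all genes given above. Of 10 female-biased P450 genes 3 were listed and tested, and of 10 other female-biased liver genes 6 were listed and 4 tested. Cyp2b9, Cyp2b13, Cyp2a4, Cyp3a16, Cyp3a41a, Cyp3a41b, Cyp3a44, A1bg, Sult2a1, Sult3a1 and Hao2 were not in the table used. All 3 and all 4 tested genes were highest there, against the 17.0% of all genes. Cux2 among them reached the mean of 10 only through the 2-month-old liver, so the filter fixed its place. Cyp17a1, a steroid 17-alpha-hydroxylase, was 799 there and 1.41 to 35.6 in the others. Elovl3, a male-biased fatty acid elongase, had 5978, 5445, 4105 and 4326 in the Rragc+/+ and 2566, 3709, 2544 and 102 in the Rragc S74N/+ livers. Cux2, a female-specific repressor, was 78.3 in the 2-month-old liver and 0 to 9.32 in the others. The Y-linked Ddx3y was 420.1 in that liver and 315 to 533 in the rest. Over all 8 livers, the Y-linked Eif2s3y ranged from 30.8 to 79.9, Kdm5d from 36.4 to 86.5 and Uty from 75.0 to 179. Y-linked genes were thus expressed in every liver.

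Over all genes, 2.80% were lower and 2.37% higher by genotype at an unadjusted p under 0.05. The same lists gave 2 of 6 male-biased P450 genes lower at that level, Cyp2u1 and Cyp7b1, with a median log2 fold change of -0.88, or -0.36 without the 2-month-old liver. Among the other male-biased genes 3 of 10, Elovl3, Mup20 and Selenbp2, were lower at that level, with a median of -1.02, or -0.34 without it. Elovl3 and Selenbp2 were lower without overlap between genotypes, against 1.64% of all genes. Their log2 fold changes without that liver were -0.76 and -1.20. Of the 3 female-biased P450 genes 1, Cyp2c40, was higher, with a median of 2.28 and 1.08. Of the 4 tested other female-biased genes 2, Acot3 and Abcd2, were higher, with a median of 1.05. Without the 2-month-old liver, where Cux2 fell below the filter, it was 1.03. Acot3, a low gene, was higher without overlap between genotypes, against 1.30% of all genes. Of 11 genes of the growth hormone axis 1 had an unadjusted p under 0.05, Socs2, a feedback inhibitor of growth hormone signalling. Socs2 had 341, 256, 76.4 and 252 in the Rragc+/+ and 635, 408, 416 and 977 in the Rragc S74N/+ livers, with no overlap between genotypes (log2 fold change 1.49, SE 0.42, limma adjusted p = 0.846, exact permutation p = 0.0286). None of these genes passed the threshold on the adjusted p.

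Of 17 acute phase genes, the 2-month-old liver was above the other 7 for 8 (47.1%), below them for 2 (11.8%) and within their range for the rest, against 17.0% above and 18.4% below over all genes. Lcn2, among the 8, had 1.86 to 11.1 in the other 7 and 70.2 in the 2-month-old liver. It reached the mean of 10 only through that liver, so the filter fixed its place. Saa1, a serum amyloid made by hepatocytes in inflammation, was 976 there and 195 to 302 in the others. Inflammation is known to lower many P450 transcripts, and the part of inflammation, age or growth hormone in the values of this liver was not tested.

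A second pattern followed the 2.5-month-old livers, 1 of each genotype. It was examined with a contrast of 2.5 against 3 months in the fit with age as a factor, chosen after the values were seen, in which the 2-month-old liver has an age term of its own and so does not enter the contrast. The contrast compares 2 livers with 5, and age cannot be told apart from any other difference in how these livers were collected. Of the 31 members 2, Cyp2e1 and Cyp2c50, were lower at a limma adjusted p under 0.05, against 3.41% of all tested genes. At an unadjusted p under 0.05, 10 members or 32.3% were lower, against 12.0%, and 3 or 9.68% were higher, against 7.66%. The 3 higher were Cyp2j5, Cyp2j9 and Cyp2d40.

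Cyp2e1, the pericentral oxidase of ethanol and acetaminophen, had 2422, 4439, 4439 and 902 in the Rragc+/+ and 6796, 3698, 1485 and 4025 in the Rragc S74N/+ livers. The livers of 2.5 months, replicate 4 of Rragc+/+ and replicate 3 of Rragc S74N/+, were the lowest of all 8, and the 2-month-old liver was not low. The log2 difference of 2.5 minus 3 months was -1.89 (SE 0.27, limma adjusted p = 0.00206), and the 3-month-old livers averaged 4359 ± 1592 (SD, n = 5). By genotype the log2 fold change of Cyp2e1 was 0.45 (SE 0.51, limma adjusted p = 0.866, exact permutation p = 0.60), and it was -0.051 without Rragc+/+ replicate 4. Part of the Cyp2e1 3′ end, 24.2% of its stretches, also matched transcripts of other genes.

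Cyp2c50 had 681, 989, 1635 and 484 in the Rragc+/+ and 2042, 997, 597 and 1189 in the Rragc S74N/+ livers. The same 2 livers were again the lowest, with a log2 difference of -1.17 (SE 0.31, limma adjusted p = 0.0421). Cyp2c50, Cyp2c37 and Cyp2c54 had 23.1%, 17.4% and 13.7% of their 3′ stretches in common with one another, so their counts are uncertain between copies. Its genotypes overlapped, with a log2 fold change of 0.36 (SE 0.39, limma adjusted p = 0.859). The other members lower at an unadjusted p were Cyp2a5, Cyp2b10, Cyp2c23, Cyp2c29, Cyp2c37, Cyp2c38, Cyp2c54 and Cyp3a13, with log2 differences from -1.09 to -0.55. By position in the lobule, 7 of 9 pericentral members were lower at that level, against the 12.0% of all genes, with a median log2 difference of -0.77, and Cyp2f2, the 1 periportal member, had -0.093 (SE 0.20). The remaining pericentral members, the steady Cyp1a2 and Cyp3a11, had 0.12 (SE 0.20) and -0.12 (SE 0.27). Cyp2c50, Cyp2c37 and Cyp2c54 are among the 7, so that count is not one of independent genes.

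Clock genes differed between the same livers. Of 7 tested genes that peak near dusk 6 were higher at 2.5 months at an unadjusted limma p under 0.05, against 7.66% of all genes, and 3 of them at an adjusted p under 0.05, against 0.349%. Dbp, a clock output factor that binds D-boxes, had 11.2, 3.74, 11.3 and 57.9 in the Rragc+/+ and 6.43, 4.44, 126 and 4.89 in the Rragc S74N/+ livers. The 2 livers of 2.5 months were far above the other 6. Of 4 tested genes that peak near dawn, Arntl and Nfil3 were lower at an unadjusted limma p under 0.05, against 12.0% of all genes. The log2 differences of Clock and Cry1 were 0.29 and -0.036. Arntl was 21.5 and 20.1 in the 2 livers of 2.5 months and 56.6 to 146 in the others. Cyb5a, which passes electrons to P450 enzymes, was lower in them (log2 difference -0.99, limma adjusted p = 0.0417). The part of the time of day in the Cyp2e1 and Cyp2c50 values was not tested.

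Leaving out both groups of younger mice left 3 Rragc+/+ and 2 Rragc S74N/+ livers of 3 months. In these, no member had an adjusted p under 0.05 in limma, and 1 was higher and 0 were lower at an unadjusted p under 0.05. The share of all genes at an unadjusted p was not counted for these livers, so these counts have no background. The median log2 fold change of the members tested in them was 0.0349.

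The remaining members stayed at low or moderate levels. Cyp2c54 ranged from 220.5 to 605 normalized reads, Cyp2d22 from 779.9 to 1257 and Cyp2j6 from 93.3 to 178. Of the members below the filter, Cyp2d12 had 0 to 15 reads per liver and Cyp2c39 had 0 to 6, too few to compare genotypes.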

How the data were processed

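The P450 members and all gene lists were chosen with earlier results of these data known. Libraries were made with a 3′ end kit (QuantSeq) from total RNA of whole liver. Alignment to GRCm38 by the authors used TopHat2 2.0.10, Bowtie 1.0.0 and SAMtools 0.1.19, and reads were counted by strand with HTSeq 0.6.1 against GENCODE. The deposited signal is the resulting read count per gene divided by a DESeq size factor, for 14506 genes. The smallest step of each liver returned whole reads for 100% of values (tolerance 0.001). No molecular identifiers are stated for liver, so reads are not independent molecules, and the recovered total is not the full sequencing depth. Groups were taken from the labels, and replicate numbers only name livers in sample order.

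Genotype was the only term of a linear model on log2(normalized count + 1), fitted with limma 3.58.1 in R 4.3.3 (empirical Bayes with a trend) to 11174 genes whose mean reached 10, with Benjamini-Hochberg adjustment at 0.05. The terms of the authors' own test are not stated. Exact permutation p-values of single members are two-sided, over all 70 labellings of the livers, and cannot be smaller than 0.0286. Values are per sample, and p-values by genotype measure the spread between livers, which includes counting error and differences in age. Members in the text are the 10 most abundant, those with an unadjusted p under 0.05, the xenobiotic, sex-biased and periportal lists, and, chosen after their values were seen, Cyp2c50, Cyp2c67, Cyp2c68, Cyp2c70, Cyp2d40, Cyp3a25, Cyp3a59, Cyp2a12 and Cyp2r1 and the genes outside the families named for the younger livers. Other settings were pseudocounts of 0.1 and 5, a mean filter of 50 or none, TMM and upper-quartile rescaling, no trend, array weights, age as a number or a factor, 3-month-old mice alone, edgeR 4.0.16 and DESeq2 1.42.0 on recovered reads, and leaving out each liver. The fit was tested on simulated data. Shared 3′ sequence was found by exact match to GENCODE M21 transcripts, a neighbouring release of the annotation used for counting, and promoters were those of RefSeq on GRCm38.p6. List genes absent under their own symbol were matched by older symbol in the RefSeq gene table (2 genes, Cyp2c23 and Trf). Promoter identity is the share of 300 bases left after subtracting the edits of an end-to-end alignment.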

Additional observations from a re-analysis of the deposited data

Results flagged for a closer look

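Within 64 groups of 4 livers, 1 per genotype for each of the 31 tested members and their summed share, 3 values on the log2 scale lay apart from the other 3 of their group by Dixon's criterion, where chance alone would flag about 3.2. Cyp2d9 was 1486 normalized reads in Rragc S74N/+ replicate 4, the 2-month-old mouse, and 10298.5 to 13422 in the other 3 of its genotype. Cyp2c69 was 396 in the same liver and 16 to 23.4 in the other 3. Cyp2d9 was also apart in Rragc+/+ replicate 3, at 10404, where the other 3 Rragc+/+ livers were at 13841 to 14515. That liver had the fewest recovered reads, 4313076. Among other tested members, it held the lowest Rragc+/+ values of Cyp1a2, Cyp2d10, Cyp2d22, Cyp2d26, Cyp2d40 and Cyp2r1. It also held the highest Rragc+/+ values of Cyp2a5, Cyp2a12, Cyp2c29, Cyp2c38, Cyp2c50, Cyp2c69, Cyp2j6, Cyp3a11, Cyp3a13, Cyp3a25 and Cyp3a59.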

How the results depend on the processing

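No paired analysis was possible because numbers were assigned in sample order and link no mice. The absence of a member with an adjusted p under 0.05 held under all 13 other settings and when each of the 8 livers was left out, with a smallest adjusted p of 0.253. The count of genes called over the whole table was 1 and became 0 without the trend, with age in months as a covariate or with 3-month-old mice alone, 3 with age as a factor and 10 with DESeq2. It was 0 to 2 as single livers were left out, with 2 without Rragc S74N/+ replicate 3. Members higher at an unadjusted p under 0.05 numbered 3, and 7 with array weights, 5 with age in months as a covariate, 6 with age as a factor, 1 with 3-month-old mice alone, 5 with edgeR and 3 to 6 as single livers were left out. Members lower numbered 1, and 5 with array weights, 0 with 3-month-old mice alone and 1 to 7 as livers were left out. Shares of all genes at an unadjusted p were not counted under these settings, so the shifts cannot be set against the whole table. The cause of these shifts was not tested. The median log2 fold change of the members, 0.18, stayed between 0.035 and 0.31.

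The direction held under every setting for 25 of the 31 tested members. With age in months as a covariate, age as a factor and 3-month-old mice alone in turn, Cyp2f2 had log2 fold changes of 0.032, 0.072 and 0.035 and Cyp2c67 of 0.014, 0.014 and 0.0032, and with array weights Cyp2c67 had 0.083. Cyp2b10 had -0.0092 with array weights, -0.0074 with age as a factor and -0.19 with 3-month-old mice alone, where Cyp3a59 had -0.22. Cyp2j9 had 0.050 with edgeR and 0.056 with DESeq2. As single livers were left out, log2 fold changes ranged from -0.22 to 0.064 for Cyp2f2, -0.051 to 0.86 for Cyp2e1, -0.31 to 0.13 for Cyp2c67, -0.26 to 0.26 for Cyp2b10 and -0.43 to 0.27 for Cyp2j9.

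With 4 livers of each genotype and ages of 2 to 3 months, the number of mice limits the precision, and counting error was not separated from variation between mice. Intervals for single livers would cover counting error only.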
